A study of Rattus norvegicus with 20 samples.

Results

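Messenger RNA levels of 10 heat shock chaperone genes were examined in rat liver: Hspa1a, Dnajb1, Dnaja1, Hsph1, Hspa8, Hsp90aa1, Hsp90ab1, Hspb1, Hspd1 and Hspe1. They were taken by symbol from the array's annotation, and 16 of the 31042 probe sets of the array carry one of these symbols. Of these 16 probe sets, 12 name 1 gene and 4 name several, and all 16 passed the filter on dim signals (log2 value above 4 in at least 5 arrays). Thus 8 of the 10 genes have a probe set of their own that passed the filter, among 7837 such genes in the whole data set. Shares of all genes below are shares of these 7837. Hspa8 and Hsp90aa1 are named only on probe sets that also name another gene, and those probe sets are called here by both names and are not counted among the 8 genes. The genes are known as cytosolic chaperones with a pair of exceptions, since the products of Hspd1 (Hsp60) and Hspe1 (Hsp10) work in the mitochondrial matrix.

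The livers came from 20 female Sprague Dawley rats, 5 in each of 4 groups, with 1 array per rat, and all rats ate the same rodent mash for 24 days, then were killed with carbon dioxide. In the BNF group the mash contained 1650 mg per kg of 5,6-benzoflavone, which is known to activate the aryl hydrocarbon receptor. The D3T rats received 3H-1,2-dithiole-3-thione at 600 mg per kg of diet, and the OLT rats received oltipraz, a dithiolethione that carries added methyl and pyrazinyl groups, at 500 mg per kg of diet. The control rats received the mash with nothing added. Dithiolethiones are known as inducers of antioxidant genes through the transcription factor Nrf2.

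Chaperones of the Hsp70 class bind exposed hydrophobic stretches of unfolded proteins, and J-domain proteins deliver those clients and start ATP hydrolysis. Nucleotide exchange factors such as Hsph1 (Hsp110) release them, and Hsp90 takes over part-folded clients such as kinases and steroid receptors. Heat shock factor 1 (HSF1) drives many of these genes when proteins misfold, by binding heat shock elements, which are inverted repeats of the unit GAA.

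Promoter sequences are shown because several of these genes are known targets of HSF1. RefSeq promoters (rat build GRCr8) were found for 9 of the 10 genes, Hsp90aa1 being the exception, and the 250 bases before each annotated start were searched. The motifs were GAANNTTC and TTCNNGAA, each of which is its own reverse complement, so that both strands were covered. At least 1 of them was present in 7 of the 9 promoters, against 13.5% of 33469 rat promoters. A run of 3 alternating units, in which either motif is followed after any 2 bases by a further unit (GAA after TTC, or TTC after GAA), overlaps the shorter motifs and was present in 4 of the 9, those of Hsph1, Hspa8, Hspd1 and Hspe1, against 0.663% of all promoters. In the stretches below, written 5′ to 3′ on the gene's strand, capitals mark the matched motif. Where a promoter held several separate matches, the nearest to the start is shown.
Hsph1, chr12:10427324-10427352, plus strand: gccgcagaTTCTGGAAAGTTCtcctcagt
Hspa8, chr8:50080451-50080479, plus strand: cggaacccTTCTGGAAGGTTCtaagacag
Hspe1, chr9:64084256-64084285, plus strand: gctcggTTCTAGAACCTTCCGGAAggcccc
Hspd1, chr9:64084256-64084285, minus strand: ggggccTTCCGGAAGGTTCTAGAAccgagc
Dnajb1, chr19:41431142-41431163, minus strand: cgggaggggcgGAAGGTTCtgg
Dnaja1, chr5:60638212-60638241, plus strand: aaaagcctctaGAAGATTCtacaaggatcg
Hspb1, chr12:26432392-26432421, minus strand: agatgggggcaGAACCTTCctggccctgcc
The Hspd1 and Hspe1 lines show the same stretch read from its opposite strands, because these genes lie head to head. That stretch is counted for both genes. The searched windows of Hspa1a and Hsp90ab1 held neither motif, which says only that these letters are absent there. A match is a description of sequence and was not tested for binding. The genes were picked as heat shock genes, so a share above that of all promoters says nothing about the diets.

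Hepatocyte markers were high in every group: 7 of 8 had a kept probe set, with a summed level of 17.62 to 17.73 in BNF, 17.52 to 17.74 in D3T and 17.66 to 17.79 in OLT, against 17.37 to 17.82 in control (log2). Across all kept probe sets, arrays correlated at 0.930 to 0.992. The array labelled D3T 5 correlated better on average with the OLT arrays (0.979) than with the other D3T arrays (0.968), and the array labelled OLT 1 better with the D3T arrays (0.966) than with the other OLT arrays (0.963). The other 8 dithiolethione arrays were each closer to their own group. The differences of the chaperone genes between OLT and D3T, and the counts that moved by over 1.5 times, are also given without these 2 arrays; because the pair was chosen for its likeness to the opposite group, leaving it out widens the gap between OLT and D3T by construction.

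By the calls defined next, most of the 8 chaperone genes fell under D3T and some of them under OLT. A gene was called where limma's p, adjusted by Benjamini-Hochberg across the 12947 kept probe sets, was under 0.05. On this rule 7 of 8 genes fell under D3T (87.5%), where 7.45% of all genes fell and 13.1% were called in either direction. Under OLT 4 of 8 fell (50.0%), where 5.58% of all genes fell and 7.50% were called. Under BNF 1 of 8 fell, where 2.40% of all genes fell and 4.17% were called. No member rose in any comparison with control. At an unadjusted limma p under 0.05, 8 of 8 were lower under D3T, 7 under OLT and 3 under BNF. Over all 7837 genes, 1259, 1317 and 935 were lower. Readings of the diet group lay below all control readings for 1 of 8 genes under BNF (4.82% of all genes), 6 under D3T (6.53%) and 4 under OLT (5.44%). The median difference from control over the 8 genes was -0.28 under BNF, -0.86 under D3T and -0.36 under OLT on the log2 scale, while over all genes it was -0.06, -0.02 and -0.05. The 3 comparisons share the same control rats. The genes were chosen with earlier results of these data known. Their shares beside those of all genes are therefore descriptions and not a test of an independent set.

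**Figure D1:**
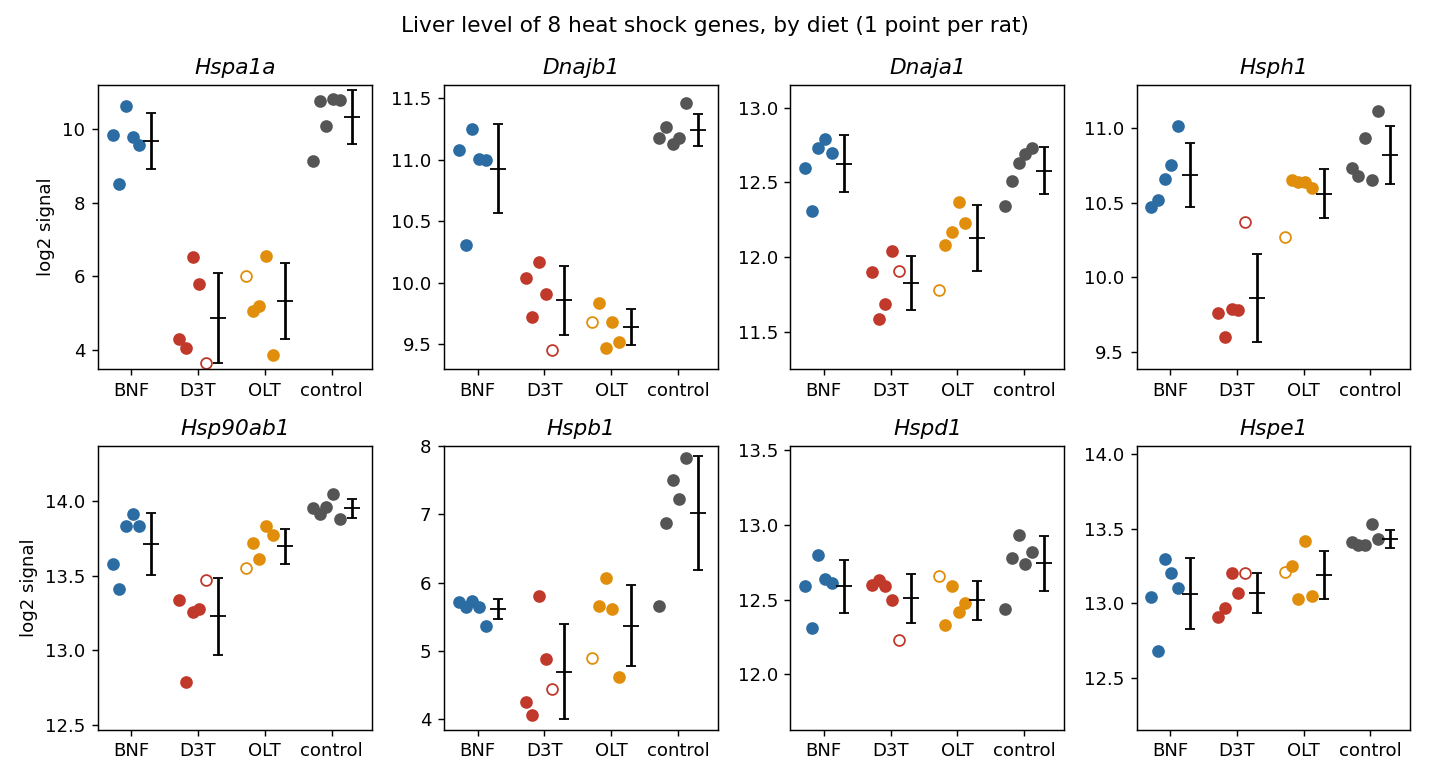
Log2 signal of the 8 genes with a probe set of their own (y axis, a separate scale for each gene) in BNF, D3T, OLT and control livers, 1 point per rat, with a black bar for the mean ± SD of 5 rats. Open circles are the arrays labelled D3T 5 and OLT 1. Hspa1a and Dnajb1 are low in every D3T and OLT rat, whereas Hsph1 is low mainly in D3T rats.

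**Figure D2:**
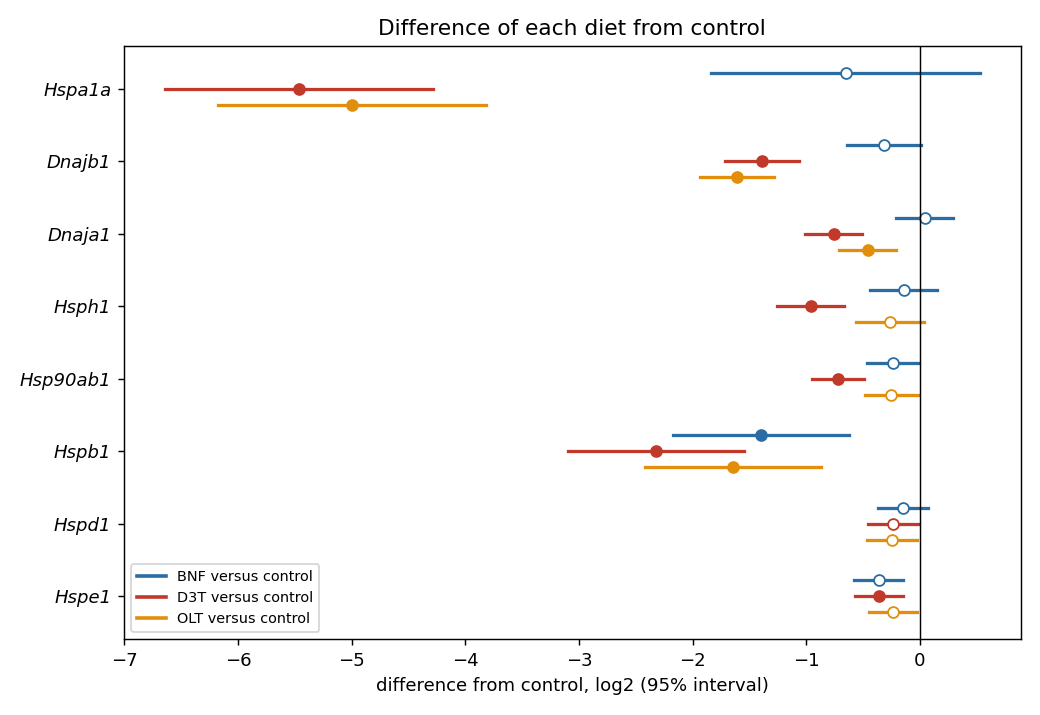
Difference from control (x axis, log2) of the 8 genes under BNF, D3T and OLT, with 95% confidence intervals from limma. Filled symbols are called at an adjusted p under 0.05. The D3T interval lies below 0 for every gene, and Hspd1 is the gene not called.

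Hspa1a, the stress-inducible Hsp70, had the largest difference from control of the 8 genes under both dithiolethiones. Its probe set read 4.30, 4.04, 6.52, 5.80 and 3.65 in D3T rats 1 to 5 and 6.02, 5.05, 5.18, 6.55 and 3.86 in OLT rats, against 9.14, 10.77, 10.10, 10.84 and 10.80 in control rats. BNF rats read 9.85, 8.51, 10.63, 9.80 and 9.58. Every D3T and OLT rat lay below every control and BNF rat, and BNF overlapped control. Hspa1a averaged 4.86 ± 1.24 in D3T and 5.33 ± 1.03 in OLT livers, against 10.33 ± 0.73 in control livers (SD, n = 5 each). The difference was -5.46 under D3T (SE 0.56, limma adjusted p = 1.01e-05), 44.1-fold lower, and -4.99 under OLT (SE 0.56, limma adjusted p = 5.36e-05), 31.9-fold lower. Several D3T and OLT readings lie near 4, where GCRMA leaves background, so the size of the fold depends on that background. Under BNF the difference was -0.65 (95% interval -1.83 to 0.53) and was not called.

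A second probe set, named for both Hspa1b and Hspa1a, near-identical inducible Hsp70 genes, was also low under both dithiolethiones. It read 7.24, 5.17, 8.36, 6.16 and 4.92 in D3T rats and 5.01, 4.99, 5.03, 4.95 and 4.93 in OLT rats, against 9.88, 11.07, 10.57, 10.38 and 10.39 in control rats. The 5 OLT readings spanned only 4.93 to 5.03, near background, so the sizes of the OLT differences on this probe set depend on that level, and the array labelled D3T 5, at 4.92, was the lowest D3T reading. The differences were -4.09 under D3T (SE 0.52) and -5.47 under OLT (SE 0.52), both called by limma, and 0.16 under BNF, not called. OLT minus D3T was -1.39 on this probe set and 0.47 on the Hspa1a probe set, and neither was called.

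Dnajb1 (Hsp40), the J-domain partner known to be induced together with Hsp70, fell under both dithiolethiones. Its brighter probe set read 10.04, 9.72, 10.17, 9.91 and 9.45 in D3T rats and 9.68, 9.84, 9.47, 9.68 and 9.52 in OLT rats, against 11.18, 11.27, 11.13, 11.18 and 11.46 in control rats. Neither dithiolethione group overlapped control. The difference was -1.39 under D3T (SE 0.16, limma adjusted p = 1.93e-05) and -1.61 under OLT (SE 0.16, limma adjusted p = 8.61e-06), that is 2.61-fold and 3.04-fold lower. BNF rats ran from 10.31 to 11.25 with a median of 11.01, and the BNF difference of -0.31 was not called. A dimmer Dnajb1 probe set gave -1.34 under D3T and -1.52 under OLT, both called.

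Dnaja1, a J-domain protein of the constitutive Hsp70 cycle, fell less. It read 11.90, 11.59, 11.69, 12.04 and 11.91 in D3T rats and 11.78, 12.08, 12.17, 12.37 and 12.23 in OLT rats, against 12.34, 12.51, 12.63, 12.69 and 12.73 in control rats. D3T lay wholly below control, and OLT overlapped it at 1 rat. The difference was -0.76 under D3T (SE 0.12, limma adjusted p = 0.000443) and -0.46 under OLT (SE 0.12, limma adjusted p = 0.0272), and it was 0.04 under BNF, not called. Without D3T 5 and OLT 1 the OLT difference was -0.37, with an adjusted p of 0.0802, and the call was lost. It was also lost without OLT 1 alone (limma adjusted p = 0.0764), OLT 2, control 4 or control 5. The call was lost too without the filter on dim signals (limma adjusted p = 0.06) and in a fit of only OLT and control (0.0721). A second Dnaja1 probe set gave -1.12 under D3T and -0.61 under OLT, both called with all arrays.

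Hsph1, the Hsp110 exchange factor of Hsp70, fell under D3T and was not called under OLT. It read 9.76, 9.60, 9.79, 9.78 and 10.37 in D3T rats, against 10.73, 10.68, 10.93, 10.65 and 11.11 in control rats. OLT rats read 10.27, 10.65, 10.64, 10.64 and 10.60, and BNF rats read 10.47, 10.52, 10.66, 10.75 and 11.01. Apart from the array labelled D3T 5, D3T rats lay below every other rat. The difference under D3T was -0.96 (SE 0.14, limma adjusted p = 0.000236), 1.95-fold lower. Under OLT it was -0.26 (95% interval -0.56 to 0.03, limma adjusted p = 0.281), although all 5 OLT readings lay below all 5 control readings. A second Hsph1 probe set gave -1.33 under D3T, called, and -0.50 under OLT, not called.

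The probe set shared by Haus8l2 and Hspa8 gave a like order, Hspa8 being the constitutive cytosolic Hsp70. It read 13.88, 14.04, 13.96, 14.03 and 14.38 in D3T rats and 14.48, 14.46, 14.60, 14.48 and 14.32 in OLT rats, against 14.20, 14.53, 14.76, 14.40 and 14.59 in control rats. D3T rats other than D3T 5 lay below every other rat on this probe set. The difference was -0.44 under D3T (SE 0.10, limma adjusted p = 0.00601), -0.03 under OLT and -0.10 under BNF, the last pair not called. How much of this signal comes from either gene cannot be told apart.

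Hsp90ab1, the constitutive cytosolic Hsp90, fell under D3T. Its brighter probe set read 13.34, 12.79, 13.26, 13.28 and 13.47 in D3T rats and 13.55, 13.72, 13.61, 13.83 and 13.77 in OLT rats, against 13.95, 13.91, 13.96, 14.05 and 13.88 in control rats. Neither group overlapped control, and D3T lay below OLT throughout. The difference was -0.72 under D3T (SE 0.11, limma adjusted p = 0.000349), 1.65-fold lower. It was -0.25 under OLT (95% interval -0.48 to -0.02, limma adjusted p = 0.185) and -0.24 under BNF (limma adjusted p = 0.305), neither called over all probe sets. A dimmer Hsp90ab1 probe set gave -0.81 under D3T, called, and -0.06 under OLT, not called.

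Another pair of probe sets names Hsp90aa1, the stress-inducible Hsp90, together with the pseudogene Hsp90aa1-ps17. The brighter read 12.70, 12.45, 12.73, 12.84 and 13.57 in D3T rats and 13.28, 13.60, 13.88, 13.86 and 13.77 in OLT rats, against 13.67, 13.93, 13.87, 13.996 and 13.99 in control rats. In D3T every reading lay below control, with D3T 5 the nearest to it. The differences on these probe sets were -1.03 (SE 0.16) and -1.04 (SE 0.21) under D3T, both called by limma, against -0.21 and -0.10 under OLT and -0.19 and -0.07 under BNF, none called.

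Hspb1 (Hsp27), a small heat shock protein that holds unfolded clients without ATP, was the gene that fell under all 3 diets. It read 4.26, 4.06, 5.81, 4.89 and 4.45 in D3T rats, 4.90, 5.66, 6.07, 5.62 and 4.62 in OLT rats and 5.72, 5.64, 5.73, 5.65 and 5.37 in BNF rats, against 5.66, 6.88, 7.51, 7.22 and 7.83 in control rats. The lowest control rat, control 1, overlapped every diet group. The differences were -1.40 under BNF (SE 0.37, limma adjusted p = 0.0416), -2.32 under D3T (SE 0.37, limma adjusted p = 0.000469) and -1.65 under OLT (SE 0.37, limma adjusted p = 0.0113). Readings near 4 lie at background, and the BNF call was lost when any array of control or BNF except control 1 was left out (differences of -1.43 to -1.20, adjusted p = 0.0585 to 0.121).

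The mitochondrial chaperonin genes had the smallest differences of the 8 under D3T. Hspd1 (Hsp60), which forms the folding chamber, read 12.23 to 12.63 in D3T, 12.33 to 12.66 in OLT and 12.31 to 12.80 in BNF, against 12.44 to 12.93 in control, and the groups overlapped. Its difference was -0.23 under D3T (95% interval -0.45 to -0.01, limma adjusted p = 0.171), -0.24 under OLT (-0.46 to -0.02, limma adjusted p = 0.179) and -0.15 under BNF, none called. Hspe1 (Hsp10), the lid of that chamber, read 12.91 to 13.20 in D3T, 13.03 to 13.42 in OLT and 12.68 to 13.30 in BNF, against 13.39 to 13.53 in control. Its difference of -0.36 under D3T was called (SE 0.10, limma adjusted p = 0.0264), and it lost the call without control 4, control 5, D3T 1 or D3T 2. Under BNF Hspe1 differed by a like -0.36 (limma adjusted p = 0.0551) and under OLT by -0.24 (limma adjusted p = 0.176), neither called. Every BNF and D3T reading of Hspe1 lay below every control reading. Without BNF 2, the lowest BNF rat at 12.68, the BNF difference of Hspe1 was -0.27 (limma adjusted p = 0.14). Without BNF 3 it was -0.42 and called (limma adjusted p = 0.0262). It was also called with array weights (0.0122), a stricter filter of log2 above 6 (0.0474) and the mean of probe sets (0.0434). It stayed uncalled in 9 of 12 other settings and in 9 of 10 fits with 1 array left out.

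Against BNF, the chaperone genes were lower in D3T for 5 of 8 genes, where 6.78% of all genes were lower and 17.6% were called. These were Hspa1a (-4.81), Dnajb1 (-1.07), Hsph1 (-0.82), Dnaja1 (-0.80) and Hsp90ab1 (-0.48). In OLT 3 of 8 were lower than in BNF, where 6.41% of all genes were lower and 11.7% were called: Hspa1a (-4.34), Dnajb1 (-1.29) and Dnaja1 (-0.50). Hspb1 was not called between either dithiolethione and BNF, with differences of -0.93 in D3T and -0.25 in OLT.

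OLT and D3T were compared at different doses, 500 and 600 mg per kg of diet. With all 20 arrays limma called 0 of 8 chaperone genes between them, and 0 of 7837 genes (0% called). At an unadjusted p under 0.05, 3 of 8 chaperone genes and 922 of all genes differed. Of the 8 genes, 6 had a higher mean in OLT than in D3T and 2 a lower one, with a median difference of 0.38, against -0.04 over all genes. The gaps were 0.70 for Hsph1 (95% interval 0.404 to 0.996, limma adjusted p = 0.113), 0.47 for Hsp90ab1 (0.24 to 0.70, limma adjusted p = 0.169) and 0.30 for Dnaja1 (0.05 to 0.55, limma adjusted p = 0.364). On the probe sets shared with Hsp90aa1 they were 0.82 and 0.94, and on that shared with Hspa8 0.41.

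For Hspa1a and Dnajb1 the interval of the difference reached to both sides of 0. OLT minus D3T was 0.47 for Hspa1a (95% interval -0.71 to 1.65) and -0.22 for Dnajb1 (-0.55 to 0.11), which do not show that the compounds act alike. Without the arrays labelled D3T 5 and OLT 1, limma called 2 of 8 genes higher in OLT, where 1.95% of all genes were called higher: Hsph1 by 0.90 (adjusted p = 0.000339) and Hsp90ab1 by 0.56 (adjusted p = 0.0103). The probe sets shared with Hsp90aa1 were then higher by 1.10 and 1.20 and that shared with Hspa8 by 0.49, all called, while Hspa1a differed by -0.01 and Dnajb1 by -0.34, not called. The probe set shared by Hspa1b and Hspa1a differed by -1.39 with all arrays (95% interval -2.47 to -0.305, limma adjusted p = 0.321) and by -1.76 without the 2 arrays (-2.90 to -0.61, limma adjusted p = 0.0829), lower in OLT and not called in either fit. Hsph1 and Hsp90ab1 were also called when D3T 5 or OLT 1 alone was left out. With all 20 arrays, limma called both when arrays were weighted (adjusted p = 0.0341 and 0.0472) and with the interquartile range of each array as a covariate (adjusted p = 0.0394 and 0.0394), and the other settings that kept every OLT and D3T array gave adjusted p = 0.0688 to 0.615, not called. The values without the 2 arrays come from leaving out arrays picked for resembling the opposite group.

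**Figure D3:**
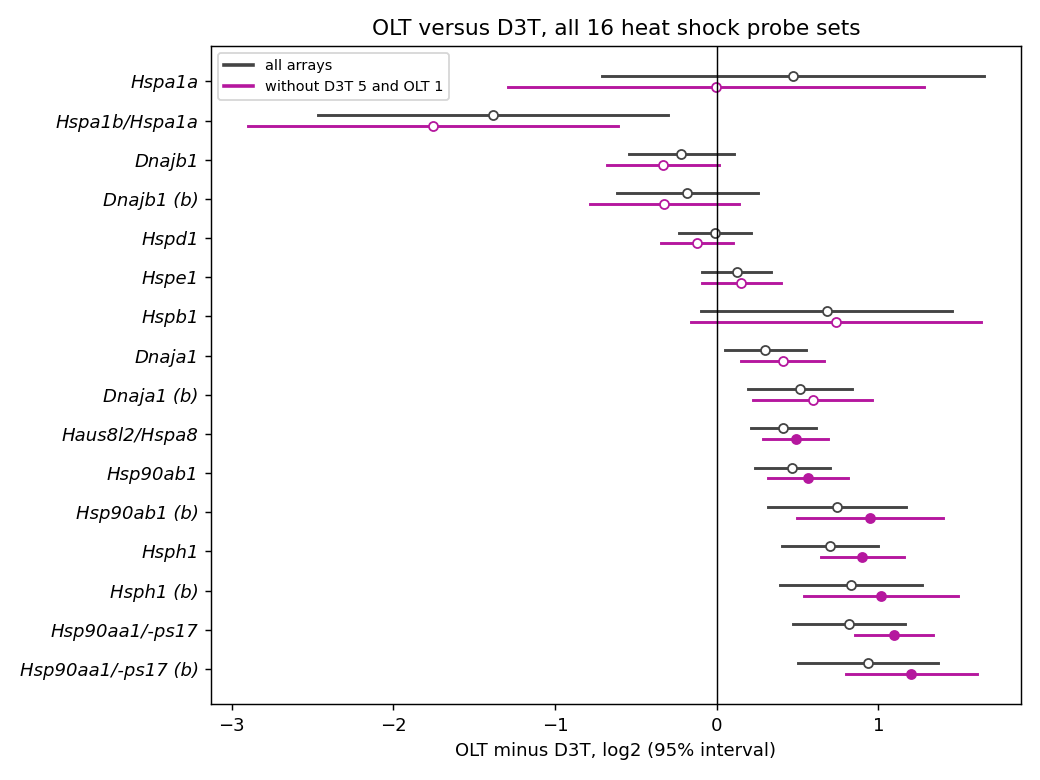
OLT minus D3T (x axis, log2) with 95% confidence intervals for all 16 probe sets, with (b) marking a gene's dimmer probe set, with all arrays and without D3T 5 and OLT 1. Hsph1, Hsp90ab1 and the Hsp90aa1 and Hspa8 probe sets lie above 0 in both, the probe set shared by Hspa1b and Hspa1a lies below 0 in both, and the interval of Hspa1a includes 0.

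Other partners of the Hsp70 cycle were read beside these genes, from lists that had been chosen with earlier results of these data known. Of 21 measured partners and other Hsp70 genes, 5 fell and 1 rose under D3T (median -0.23) and 3 fell under OLT (median -0.26), with none called under BNF. Beside this list and those below, 7.45% of all genes fell and 5.60% rose under D3T. Of all genes 5.58% fell under OLT, and 4.17% were called in either direction under BNF. Dnajb4, a J-domain protein, differed by -1.78 under D3T and -1.87 under OLT, both called. Bag3, a nucleotide exchange factor known to be induced by HSF1, differed by -1.32 and -1.65, both called. Dnaja4 fell by 1.76 under D3T, called, with -1.18 under OLT, not called, and Hspa14 by 0.67 under D3T, called.

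Co-chaperones of Hsp90 were also read. Of 14 measured, 6 fell and 1 rose under D3T (median -0.44), against 1 that fell under OLT (median -0.07). Fkbp5, an immunophilin that acts on the glucocorticoid receptor complex, differed by -1.12 under D3T and -1.39 under OLT, both called. Cacybp (-0.94) and Chordc1 (-0.72) fell under D3T, and Fkbp8 rose by 0.81. Without the 2 arrays, limma called 4 of the 14 higher in OLT than in D3T (Stip1 by 0.72, Ahsa1 by 0.55, Fkbp4 by 0.69, Ppid by 0.75) and 1 lower (Fkbp8 by -0.65). These 5 were named after their values were seen, and 0 of 14 were called with all arrays (8 higher and 1 lower in OLT at an unadjusted p under 0.05). Over all 7837 genes, 306 were higher and 616 lower in OLT at that unadjusted p. Without the 2 arrays, limma called 1.95% of all genes higher in OLT, and 549 of 12947 kept probe sets in either direction.

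The cytosolic chaperonin TRiC, which folds actin and tubulin, and its feeder prefoldin also moved under D3T, where 5 of 13 measured genes fell (median -0.24), against 0 called under OLT (median -0.05, with 1 higher and 1 lower at an unadjusted p under 0.05). These included Pfdn6 (-0.55), Pfdn2 (-0.50), Tcp1 (-0.50) and Cct2 (-0.48). Of 13 mitochondrial chaperones and proteases other than Hspd1 and Hspe1, limma called 0 under D3T (median 0.12, with 3 higher at an unadjusted p under 0.05 and 1 called higher without D3T 5 and OLT 1) and 0 under OLT (median 0.01, with 0 at an unadjusted p under 0.05), and Hspa9, the mitochondrial Hsp70, differed by -0.06 and -0.32. Of 2 measured small heat shock proteins besides Hspb1, limma called 0 under any diet (1 lower under D3T and 1 under OLT at an unadjusted p under 0.05). Over all 7837 genes at that unadjusted p, 978 were higher and 1259 lower under D3T, and 589 higher and 1317 lower under OLT.

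Of 23 measured chaperones and stress genes of the endoplasmic reticulum, 2 rose and 0 fell under D3T (median 0.21), where 5.60% of all genes were called higher. At an unadjusted p under 0.05, 8 were higher and 1 lower, and without D3T 5 and OLT 1 limma called 7 higher and 0 lower. Over all 7837 genes, 978 were higher and 1259 lower under D3T at that unadjusted p. Of all 12947 kept probe sets, limma called 1711 under D3T in either direction without the 2 arrays, against 1502 with all arrays. Of the 23, those called with all arrays included Sil1, higher by 0.85, a gene with a control level near background. Under OLT 3 fell (median 0.05): Herpud1 (mean 10.27 in OLT against 12.27 in control), Dnajb9 (a difference of -1.92) and Ddit3 (-0.98), which are known as targets of the unfolded protein response. Hspa5 (BiP) differed by -0.02 under D3T and -0.07 under OLT and Hsp90b1 (Grp94) by 0.01 and -0.08, none called. Between OLT and D3T, limma called 0 of the 23 with all arrays (0 higher and 8 lower in OLT at an unadjusted p under 0.05). Over all 7837 genes, 306 were higher and 616 lower in OLT at that unadjusted p. Without D3T 5 and OLT 1, a step that widens this gap by construction, limma called 9 of the 23 lower in OLT and 0 higher. That fit called 549 of all 12947 kept probe sets in either direction, against 0 with all arrays.

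**Figure D4:**
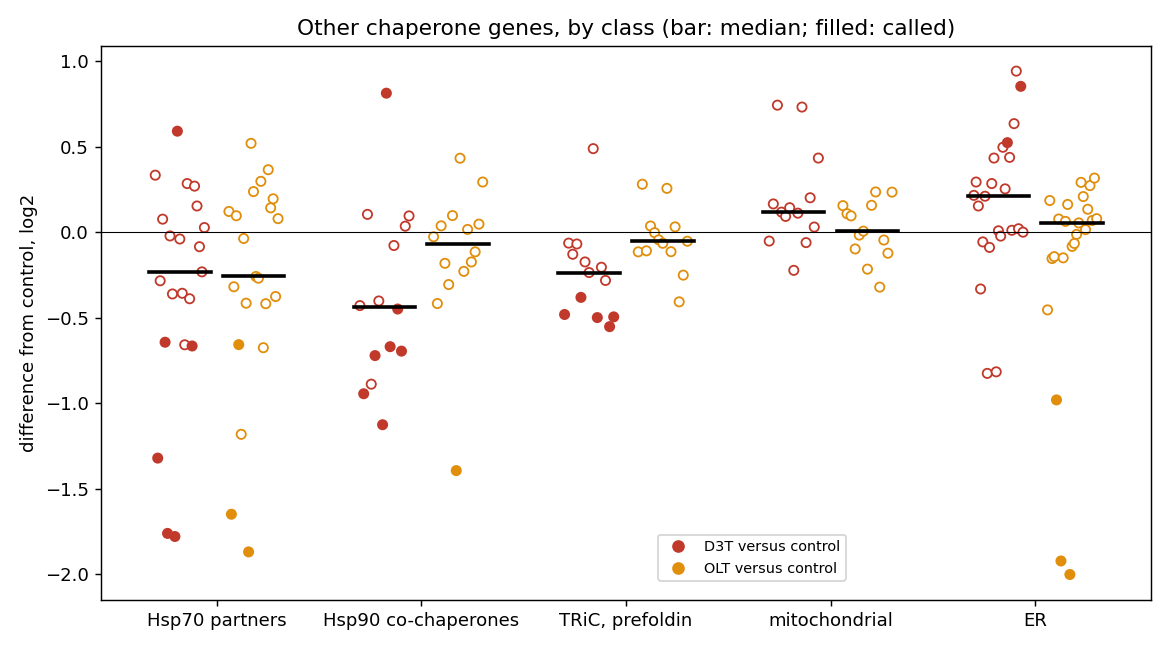
Difference from control (y axis, log2) of other chaperone genes under D3T and OLT, by class, 1 point per gene. The black bar is the class median and filled points are called at an adjusted p under 0.05. Under D3T, Hsp70 partners, Hsp90 co-chaperones and TRiC with prefoldin have medians below 0, and the endoplasmic reticulum class has a median above 0.

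Of 5 listed heat shock factors and regulators, 3 were measured and 0 were called under any diet. At an unadjusted limma p under 0.05, 1 of the 3 was lower under OLT, as were 1317 of all 7837 genes. Hsf1 differed by -0.10 under D3T and -0.23 under OLT, at a level near 5, close to the filter, and Hsf2 by -0.15 and -0.07. Of 6 measured genes of ubiquitin and aggregate handling, Sqstm1 rose by 0.51 under D3T and the others were not called. Of the cold-inducible genes, Rbm3 fell by 1.40 under D3T, called, while Cirbp differed by -0.34, not called.

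Gene groups that respond to time of day, hormones and handling moved in the same livers, and their part in the chaperone results was not tested. Of 18 measured clock genes, 6 fell and 2 rose under D3T (median -0.75), among them Noct (-5.37), Per2 (-4.39), a repressor of the circadian clock, and Usp2 (-3.29), and 4 fell and 1 rose under OLT (median -0.36), with Per2 at -2.21. Of 13 measured glucocorticoid targets, which share Fkbp5, Per1, Dusp1 and Tat with other lists, 9 fell and 1 rose under D3T and 4 fell under OLT. Tsc22d3 (GILZ), a gene known to be induced by glucocorticoids, differed by -1.84 under D3T and -1.83 under OLT, and the metallothionein genes Mt2A and Mt1 by -4.79 and -3.15 under D3T, all called. Of 11 measured immediate early genes, 4 fell under D3T and 4 under OLT, with Jun at -2.24 and -2.17. Without D3T 5 and OLT 1, 4 were called lower under D3T and 2 under OLT, where Ier3 (limma adjusted p = 0.0583) and Dusp1 (limma adjusted p = 0.0601) lost the call. The clock genes then had 3 called lower and 0 higher under OLT.

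Marker genes of other cells moved too. Of 5 erythrocyte markers 3 had a probe set, of which Hbb and Alas2 were kept and rose under D3T (1.003 and 1.93) and OLT (1.10 and 1.84), and Slc4a1 was at background. Without D3T 5 and OLT 1, Hbb lost its call under OLT (1.01, limma adjusted p = 0.0518). Their summed level was 13.5 to 14.4 in D3T and 13.5 to 14.4 in OLT, against 12.1 to 13.6 in control (log2), and their part in the chaperone results was not tested. Under BNF, 4 of 5 measured stellate cell markers rose, with a summed level of 11.5 to 12.3 in BNF against 10.5 to 11.1 in control (log2) and Des, Lum and Rgs5 at background, as did 2 of 8 macrophage, 1 of 3 lymphocyte and 1 of 2 cholangiocyte markers, the last 0 of 2 without D3T 5 and OLT 1. Of all genes, 4.17% were called in either direction under BNF. Hspb1 was the only one of the 8 chaperone genes called there, and the part of these cells in that result was not tested. Of 7 measured hepatocyte markers, 1 rose under BNF and 1 fell under D3T (2 without D3T 5 and OLT 1). Among 5 stellate cell markers 1 fell under D3T. Among 8 macrophage markers 1 fell under OLT, and 0 did without D3T 5 and OLT 1. In whole liver, fewer cells of a type and less RNA per cell cannot be told apart.

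Across the 20 arrays, Hspa1a had its highest positive correlations with Vnn1 (Pearson r = 0.943), Tsc22d3 (0.921), Swt1 (0.911), Trmt61a (0.910) and Cyp17a1 (0.895), among all genes that are no member. After each array was set relative to its diet mean, these values were 0.412, 0.261, 0.714, 0.251 and -0.149. The mean of the 8 standardized genes had its highest positive correlations with Acadl (0.912), Ech1 (0.911), Eci1 (0.906), Vnn1 (0.903) and Por (0.894), with 0.537, 0.475, 0.396, 0.561 and 0.428 after the same step. Genes that varied in the opposite direction were not ranked. Among the 8 genes, Hspa1a and Dnajb1 correlated at 0.948 over all arrays and 0.661 within diets, while Hspa1a and Hsph1 correlated at 0.626 and -0.167. These are descriptions over arrays that share the diets, and no test was made of them.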

How the data were processed

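RNA from 20 rat livers, extracted with Stat-60 and labelled with an Enzo kit per the labels' protocols, was read on 1-colour arrays, 5 per diet. The deposited values are log2 probe set summaries (0.0832 to 16.46) that the authors made with GCRMA, per the submitters' processing notes, in a version that is not stated. They were used without further scaling. Scan dates are not given in the sources used here, so scan batches were not looked for. The labels give separate rats, and the number of arrays limits the precision.

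Tests used limma 3.58.1 in R 4.3.3 on 12947 kept probe sets (log2 above 4 in at least 5 of 20 arrays), with a mean per diet, an intensity trend and Benjamini-Hochberg adjustment, two-sided, for 6 comparisons; a gene is its brightest kept probe set. The method was tested on simulated data. Named genes are the members, the 4 largest called of each list, and fixed landmarks. The members and lists were chosen with earlier results of these data known. Arrays with the same replicate number in different diets had residual correlations of -0.27 to 0.30. These were not set against arrays of unlike number, so they cannot show whether the number pairs rats.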

Additional observations from a re-analysis of the deposited data

Results flagged for a closer look

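Among 32 groups of 5 rats (8 genes in 4 diets), 5 held a rat whose gap to its nearest neighbour, divided by the group's range, exceeded Dixon's limit of 0.71, which chance does in about 1 of 20 groups. For Hsph1, the array labelled D3T 5 was the highest of its group at 10.37, with the other D3T rats at 9.60 to 9.79, and the array labelled OLT 1 was the lowest of its group at 10.27, with the other OLT rats at 10.60 to 10.65. For Dnajb1, BNF 2 was the lowest at 10.31, with the other BNF rats up to 11.25. BNF 2 was also the lowest BNF rat for Hspa1a, Dnaja1, Hsp90ab1, Hspd1 and Hspe1, within the limit. For Hspb1, BNF 5 was the lowest at 5.37, with the others at 5.64 to 5.73. For Hspe1, control 4 was the highest at 13.53, with the others at 13.39 to 13.43.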

How the results depend on the processing

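Of 1056 values of single genes recomputed under alternative settings, 992 kept direction and side of the threshold, 25 lost a call, 16 gained one and 23 turned sign, all of the last uncalled and near 0. The D3T count of 7 and the counts against BNF (5 for D3T, 3 for OLT) stayed within 1.5 times. The BNF count of 1 became 0 after further quantile normalization, without the filter, and in a fit of only BNF and control, 2 with the stricter filter, array weights or the mean of probe sets, and 0 to 1 when an array was left out. The OLT count of 4 became 2 in a fit of only OLT and control (Dnaja1 and Hspb1 lost), and 3 to 4 when an array was left out. The OLT versus D3T count of 0 became 2 with array weights, without D3T 5 and OLT 1, and with the interquartile range as a covariate, and 0 to 2 when an array was left out; where it was 2, the genes were Hsph1 and Hsp90ab1. Hspe1 in D3T versus BNF turned to -0.041 after centring, -0.1316 after quantile normalization, -0.0321 with array weights, -0.0303 without the 2 arrays and -0.0589 with the covariate, and ran from -0.0931 to 0.0618 with an array left out. Hsp90ab1 in OLT versus BNF turned to 0.0192 without the 2 arrays and ran from -0.0929 to 0.0336 with 1 left out. In OLT versus D3T, Hspd1 turned to 0.0358 after quantile normalization and Hspa1a to -0.005 without the 2 arrays. With an array left out, Hspd1 in OLT versus D3T ran from -0.0814 to 0.0297, and Dnaja1 in BNF versus control from -0.0186 to 0.1204. The cause was not tested. With the replicate number as a block (replicate block) the counts were 1, 7, 4, 5, 3 and 0, as without it. Whether the number pairs rats was not settled.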

Other observations

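Stress and clock genes outside the chaperone set also moved under BNF, and the genes named here were chosen after their values were seen. Of 11 measured immediate early genes 2 rose under BNF and 0 fell: Junb by 1.56 (limma adjusted p = 0.0105) and Gadd45a by 1.01 (limma adjusted p = 0.0176), while Gadd45a differed by -1.26 under D3T and -1.37 under OLT, both called. Nr1d1, the clock repressor REV-ERB alpha, rose under BNF (1.51), D3T (1.35) and OLT (0.94), each against the same controls; the OLT call was lost without the arrays labelled D3T 5 and OLT 1 (limma adjusted p = 0.0936). Nfil3, a clock-controlled repressor, differed by -1.52 under BNF and -1.16 under OLT, both called with all arrays, the OLT call being lost without those 2 arrays (limma adjusted p = 0.0576). In the endoplasmic reticulum list, Xbp1, a transcription factor of the unfolded protein response, rose by 0.43 under BNF and Creld2 fell by 0.90, the 1 of 23 called lower under BNF, against 3 of 23 without those 2 arrays.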
